A study of Mus musculus with 96 samples.

Results

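Brown fat from between the shoulder blades (iBAT, interscapular brown adipose tissue) was compared with white fat of the groin (iWAT, inguinal white adipose tissue) in wild-type mice kept at 30 °C, a temperature that is thermoneutral for the mouse. The libraries were chosen by their labels alone (wild-type genotype, control diet, 30 °C), which gave 8 libraries of iBAT and 8 of iWAT, 16 of the 96 libraries of the study. All mice were male C57BL/6J. These animals ate the control diet (13% of energy from fat) for 4 weeks before both depots were removed. The remaining 80 libraries came from wild-type mice housed at 20 °C with control food, or at 30 °C with food high in fat (48% of energy), and from UCP1(-/-) mice, which lack Ucp1, under the same 3 conditions, again with 8 libraries of each depot. RNA was isolated from the frozen tissue and sequenced from a stranded mRNA library. Both depots were taken from each animal, but the labels do not say which libraries share an animal, so the comparison is unpaired.

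Brown adipocytes hold many small lipid droplets and dense mitochondria. Noradrenaline from sympathetic nerves raises cyclic AMP in these cells, which starts lipolysis, and the released fatty acids both fuel the respiratory chain and open uncoupling protein 1 (UCP1), so that the proton gradient is turned into heat. Inguinal fat is a subcutaneous depot whose adipocytes mainly store triglyceride and secrete hormones such as leptin, although cells of a brown-like type can appear in it in the cold. Whole depots also hold vessels, nerves, fibroblasts and immune cells, and the inguinal depot encloses a lymph node.

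The deposited values were reads normalized to transcript length and library depth (RPKM), which are shares of a library. Depth recovered from the spacing of low values was 9.31 M to 13.7 M reads (M for mega) in iBAT and 10.95 M to 15.5 M reads in iWAT, so that 1 read on a transcript of 1 kb stood for 0.0647 to 0.107 RPKM. Correlations of log2 values ran from 0.971 to 0.995 within a depot and from 0.890 to 0.925 between depots. Ucp1, the defining brown marker, was high in every iBAT library and low in every iWAT library, so that no library went against its tissue label. RNA of 2 other tissues was nevertheless present. The skeletal muscle gene Acta1 ran from 18.1 to 1274 RPKM in iBAT (median 94) and 7.97 to 2885 RPKM in iWAT (median 284), and the summed RPKM of 36 skeletal muscle markers made up 0.0533 to 1.82% of iBAT and 0.0199 to 4.52% of iWAT libraries. The 3 libraries of each depot that held the most muscle RNA were those numbered 19, 21 and 24 (iBAT) and 67, 69 and 71 (iWAT) in the labels, and counts were repeated without these 6 libraries. The hepatocyte gene Alb, picked after its values were seen, ran from 0.304 to 39.9 RPKM in iBAT (median 6.16) and 10.8 to 368 RPKM in iWAT (median 93.4) with overlap, and why it was present was not tested. RNA of lymph node cells was present in all 8 iWAT libraries, as given with the immune genes. In bulk tissue, fewer cells of a type and less RNA per cell cannot be told apart.

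**Figure D1:**
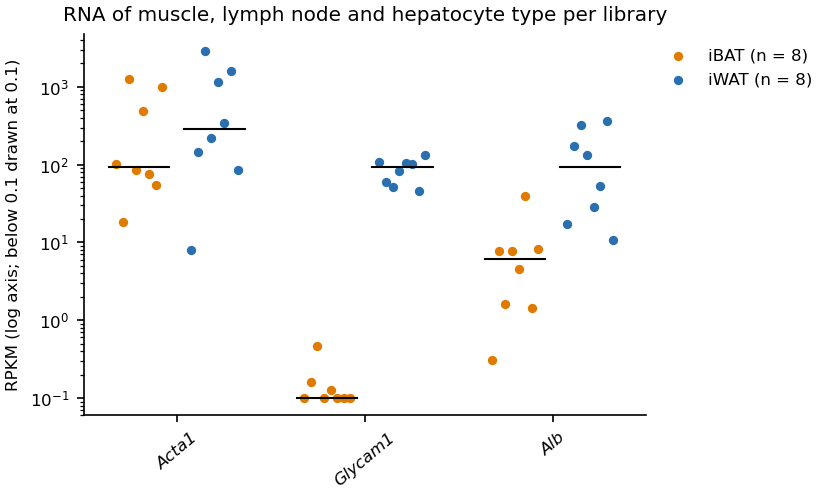
RNA of other tissues in the 16 libraries: RPKM on a log axis (values below 0.1 drawn at 0.1) of the skeletal muscle gene Acta1, the lymph node vessel gene Glycam1 and the hepatocyte gene Alb, each point a library of iBAT (orange) or iWAT (blue). Acta1 spans a wide range in both depots, Glycam1 separates them completely, and Alb is highest in iWAT but overlaps between depots.

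Most genes differed between the depots. Differences are given as iBAT minus iWAT of the group means of log2(RPKM + 1) with their standard error, tested with limma over 16310 genes, and p-values are adjusted over all of these genes. At an adjusted p of 0.05, 13263 genes (81.3%) differed in either direction. Of these, 3188 (19.5% of genes tested) were higher in iBAT and 10075 (61.8%) were higher in iWAT. The median difference of all genes was −0.43, and RPKM are shares of a library, so that genes with a large share lower the values of all others. Scaling by median ratios moved that median to −0.09 and the share of calls that were higher in iBAT from 24% to 44.5%. Quantile normalization moved them to 0.05 and 53.8%. Where a scaling moved the split of a list by over 10 percentage points, its counts under median ratios and under quantiles are given in brackets, genes higher in iBAT before those higher in iWAT. Where a called direction named in the text changed under either scaling, the value is given beside it. When a difference had to exceed 2-fold (limma treat), 625 genes (3.83%) were higher in iBAT and 2472 (15.2%) were higher in iWAT, and with median-ratio scaling the counts were 1191 and 1435. The median SD of a gene between libraries was 0.162 in iBAT and 0.156 in iWAT on the log2 scale. The ranges of iBAT and iWAT did not overlap for 9734 of the 16310 genes (59.7%). Ranges without overlap, as given for named genes below, were therefore the more common outcome.

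A small number of genes made up much of the brown fat transcriptome. The 10 most abundant genes of a library held 22.3 to 28.4% of summed RPKM in iBAT and 14.2 to 15.9% in iWAT. The ranges did not overlap (exact permutation test, two-sided, adjusted p = 1.9e-04 over 5 shares). Before adjustment the p-value of this permutation test was 1.6e-04, the smallest that 8 against 8 libraries can give. Of the 13 protein genes of the mitochondrial genome, only 7 were among the symbols used, and COX2, COX3 and ND3 of these read near 0. The 7 genes together held 15.8% ± 2.10 (SD, n = 8) of iBAT and 5.81% ± 0.466 of iWAT, which is not the share of the whole mitochondrial genome. Nuclear genes of the respiratory chain and ATP synthase held 8.08% ± 0.660 and 2.20% ± 0.105, and Ucp1 alone 2.03% ± 0.145 and 0.00868% ± 0.0105. Each of these 3 shares was higher in every iBAT than in every iWAT library (exact permutation test, adjusted p = 1.9e-04 each). When all transcripts of a symbol were summed, the Ucp1 share of iBAT was 0.983% in place of 2.03%. The share of skeletal muscle markers overlapped between depots (exact permutation test, adjusted p = 0.291). By mean RPKM, the leading genes of iBAT were COX1 and ND4L of the mitochondrial genome, the stearoyl-CoA desaturase Scd1 and the fatty acid binding protein Fabp4, with Ucp1 in the seventh place. In iWAT they were Fabp4, the serine protease adipsin (Cfd), COX1, ND4L and the carbonic anhydrase Car3.

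Thermogenic effector genes had the largest median difference towards iBAT of the 59 gene lists. Of 32 genes listed as effectors of brown fat, 30 were higher in iBAT and 1 was lower, against 19.5% and 61.8% of all genes tested, and 24 of the 32 were at least 2-fold higher. The median difference of the list was 3.61, beside −0.43 for all genes. Ucp1 ran from 7328 to 9281 RPKM in iBAT (median 8200.4) and 4.66 to 117 RPKM in iWAT (median 14.9). The ranges lay far apart, and the ratio of means was 247-fold (8.67 ± 0.40, adjusted p = 5.1e-35). Among iWAT libraries, Ucp1 was highest in library 72 (117 RPKM) and library 67 (78.2 RPKM) and reached at most 16.3 RPKM in the others. Dio2, the deiodinase that makes active thyroid hormone inside brown adipocytes, ran from 137 to 264 RPKM in iBAT (median 186) and 0.417 to 4.74 RPKM in iWAT (median 1.02) (6.47 ± 0.26, adjusted p = 6.3e-39). Cidea, a lipid droplet protein of brown adipocytes, ran from 1077 to 1412 RPKM in iBAT (median 1205) and 18.5 to 72.9 RPKM in iWAT (median 36.8) (4.98 ± 0.22). Elovl3, which lengthens very long fatty acid chains, ran from 111 to 243 RPKM in iBAT (median 131) and 0.966 to 7.66 RPKM in iWAT (median 2.22) (5.28 ± 0.33). None of these ranges overlapped between depots.

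Several other effectors with large differences acted in fuel handling. Fabp3, a fatty acid binding protein shared with heart and muscle, ran from 229 to 374 RPKM in iBAT (median 324) and 0.408 to 6.42 RPKM in iWAT (median 1.67) (6.76 ± 0.31). The glycerol kinase Gyk, which lets adipocytes recycle glycerol, ran from 210.1 to 324 RPKM in iBAT (median 285) and 2.6 to 10.0 RPKM in iWAT (median 3.55) (5.75 ± 0.20). Cpt1b, the muscle-type carnitine palmitoyltransferase that admits fatty acids to mitochondria, ran from 291 to 327 RPKM in iBAT (median 298) and 5.48 to 19.7 RPKM in iWAT (median 6.76) (5.08 ± 0.19). The ranges of these genes again did not overlap. Pank1, which starts coenzyme A synthesis, differed by 5.04 ± 0.14, the proton channel gene Otop1 by 4.90 ± 0.17, the acyl-CoA synthetase Slc27a2 by 5.09 ± 0.31 and the lipid droplet protein Plin5 by 3.59 ± 0.16. Kcnk3, a potassium channel of brown adipocytes, ran from 216 to 319.9 RPKM in iBAT (median 268) and 14.2 to 32 RPKM in iWAT (median 20.9) (3.64 ± 0.16), without overlap. By size, the guanosine monophosphate reductase Gmpr stood between Ucp1 and Fabp3, with 470.3 to 824 RPKM in iBAT (median 599) and 2.59 to 13 RPKM in iWAT (median 4.42) (6.80 ± 0.26, adjusted p = 3.9e-41). Phospho1, a phosphatase acting on phosphocholine, differed by 4.80 ± 0.17. The effector gene against the majority was Epsti1, an interferon-inducible gene, at 0.823 to 2.9 RPKM in iBAT (median 1.54) and 30.2 to 52.4 RPKM in iWAT (median 42.6) (−4.05 ± 0.27). Cited1 did not pass the test (−0.27 ± 0.17, adjusted p = 0.119).

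**Figure D2:**
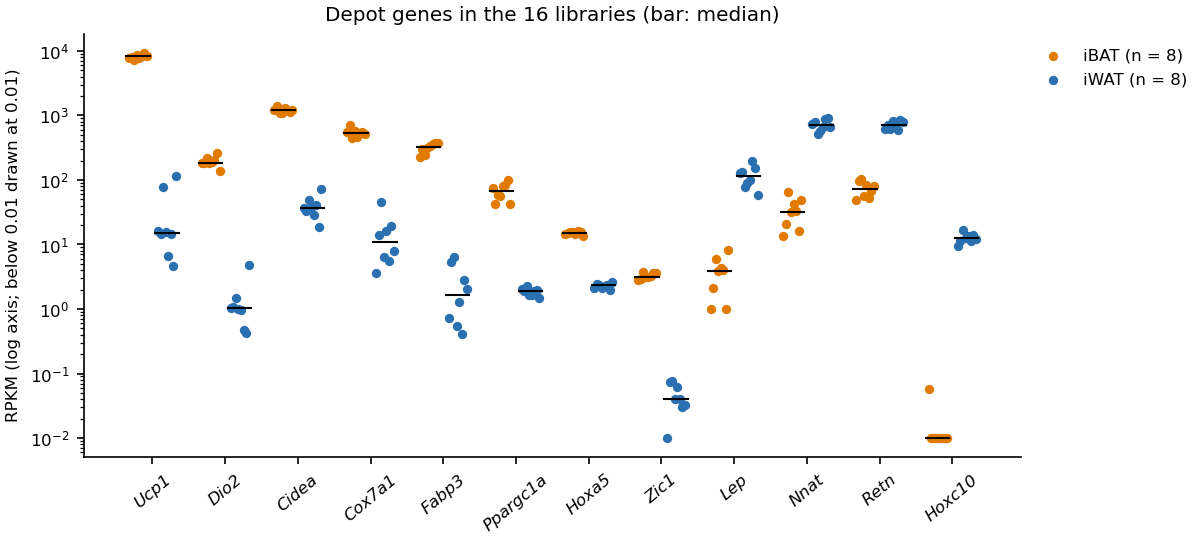
RPKM on a log axis (values below 0.01 drawn at 0.01) of 12 genes in each library of iBAT (orange) and iWAT (blue), with the group median as a bar. The brown genes Ucp1, Dio2, Cidea, Cox7a1, Fabp3, Ppargc1a, Hoxa5 and Zic1 are higher in every iBAT library, and Lep, Nnat, Retn and Hoxc10 are higher in every iWAT library.

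The receptors and enzymes that carry the sympathetic signal differed in both directions. Of 44 genes tested of adrenergic, cyclic AMP and thyroid signalling, 22 were higher in iBAT and 16 were higher in iWAT (median ratios 26 and 12, quantiles 25 and 15), against 19.5% and 61.8% of all genes. The alpha-1A adrenoceptor Adra1a ran from 47.8 to 57 RPKM in iBAT (median 50.9) and 1.71 to 4.42 RPKM in iWAT (median 2.56) (3.82 ± 0.13, adjusted p = 2.0e-43) and the beta-1 adrenoceptor Adrb1 from 8.64 to 16.2 RPKM in iBAT (median 12) and 1.11 to 3.53 RPKM in iWAT (median 1.84) (2.16 ± 0.17). The beta-3 adrenoceptor Adrb3, the main receptor of mouse adipocytes for noradrenaline, was not higher in iBAT but ran from 37.3 to 62.5 RPKM in iBAT (median 52.3) and 71.2 to 102 RPKM in iWAT (median 81.4) (−0.73 ± 0.19, adjusted p = 5.1e-04, but −0.22 with an adjusted p of 0.32 under median-ratio scaling), and the ranges did not overlap. Of the adenylyl cyclases, Adcy3 was higher in iBAT (3.21 ± 0.14) and Adcy5 was lower (−2.99 ± 0.19). Adcy3 ran from 144 to 196 RPKM in iBAT (median 152) and 12.6 to 27.9 RPKM in iWAT (median 16.3), and Adcy5 from 1.11 to 2.91 RPKM in iBAT (median 1.68) and 15.3 to 28.3 RPKM in iWAT (median 20.7). The phosphodiesterases, which end the signal, split likewise, with Pde4d (2.71 ± 0.15) and Pde4a (2.27 ± 0.09) higher in iBAT and Pde4b (−1.41 ± 0.16) and Pde3b (−0.57 ± 0.11, but −0.05 without passing under median-ratio scaling) higher in iWAT. Gnas, which encodes the stimulatory G protein, was higher in iBAT (1.65 ± 0.09). The thyroid hormone receptor Thrb was higher (0.77 ± 0.11), while the other receptor, Thra, stood at 0.07 ± 0.09 (adjusted p = 0.47) and passed under both scalings (0.57 and 0.30).

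Transcriptional regulators of brown fat did not form a single group. Of 32 tested, 15 were higher in iBAT and 12 were higher in iWAT, with a median difference of 0.01 (median ratios 21 and 4, quantiles 20 and 7). Among all genes, 19.5% were higher in iBAT and 61.8% were higher in iWAT, with a median of −0.43. The list thus lay further towards iBAT than all genes. Several regulators were far higher in iBAT. Ppargc1a, the coactivator that drives mitochondrial gene expression, ran from 41.9 to 100.3 RPKM in iBAT (median 66.9) and 1.48 to 2.28 RPKM in iWAT (median 1.91) (4.52 ± 0.19, adjusted p = 4.9e-37). Esrrg, an estrogen-related receptor, ran from 9.01 to 18.3 RPKM in iBAT (median 12.7) and 0.228 to 0.671 RPKM in iWAT (median 0.385) (3.22 ± 0.13), and its relative Esrra from 80.1 to 115 RPKM in iBAT (median 94.5) and 17.5 to 25.4 RPKM in iWAT (median 20.8) (2.13 ± 0.13). No library of either depot overlapped the other for these 3 genes. Ppara, the receptor that controls fatty acid oxidation genes, differed by 3.12 ± 0.18 and Cebpb by 2.74 ± 0.12. Other regulators differed by less. Prdm16, a coregulator of brown fat identity, ran from 4.23 to 7.07 RPKM in iBAT (median 5.05) and 2.17 to 4.73 RPKM in iWAT (median 2.99) (0.59 ± 0.11), Ebf2 from 8.53 to 12.9 RPKM in iBAT (median 11.5) and 8.14 to 9.39 RPKM in iWAT (median 8.91) (0.32 ± 0.09), and Pparg, the master regulator of all adipocytes, from 113 to 135 RPKM in iBAT (median 122) and 77.8 to 111 RPKM in iWAT (median 98.6) (0.36 ± 0.08, and 0.18 without passing under quantile normalization). Of these 3, only the ranges of Pparg did not overlap. Irf4, a factor of brown adipocytes and of lymphocytes, was lower in iBAT at 2.05 to 6.62 RPKM in iBAT (median 4.33) and 19.6 to 28.5 RPKM in iWAT (median 24.7) (−2.23 ± 0.25), and B cell genes moved with it. The part of lymph node RNA in the Irf4 difference was not tested.

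The depots carried different HOX codes. HOX genes stand in 4 clusters (Hoxa, Hoxb, Hoxc and Hoxd) and are numbered by paralog group from the anterior to the posterior end of the body, and cells keep part of this code after development. Of 39 HOX genes, 28 passed the filter on low values. Of the 15 tested genes of paralog groups 6 to 10, 14 were higher in iWAT and none was higher in iBAT, whereas of the 13 tested genes of groups 1 to 5, 5 were higher in each depot. Over all 28 genes, 5 were higher in iBAT and 19 were higher in iWAT (median ratios 8 and 17, quantiles 11 and 13). These counts over all 28 are close to the shares of all genes tested, 19.5% higher in iBAT and 61.8% higher in iWAT. Quantile normalization changed the direction of Hoxb3 (−0.38, then 0.39) and Hoxd8 (−0.65, then 0.02), and median-ratio scaling that of Hoxb3 (0.01). Hoxa5 ran from 13.3 to 16.1 RPKM in iBAT (median 15.3) and 1.96 to 2.64 RPKM in iWAT (median 2.32) (2.29 ± 0.10, adjusted p = 1.4e-36) and its neighbour Hoxa4 from 6.72 to 10.5 RPKM in iBAT (median 9.39) and 0.793 to 1.33 RPKM in iWAT (median 1.07) (2.28 ± 0.12). Hoxc4 (0.72 ± 0.10) and Hoxc5 (0.90 ± 0.11) were also higher in iBAT, each without overlap. At the other end, Hoxc10 was listed at 0 in the median iBAT library and reached 0.0571 RPKM at most, but ran from 9.54 to 16.7 RPKM in iWAT (median 12.5) (−3.74 ± 0.07, adjusted p = 4.2e-64). Hoxc8 ran from 1.03 to 3.6 RPKM in iBAT (median 2) and 18.6 to 24.8 RPKM in iWAT (median 21.5) (−2.91 ± 0.15), Hoxa9 from 0 to 0.792 RPKM in iBAT (median 0.395) and 5.25 to 10.2 RPKM in iWAT (median 8.26) (−2.64 ± 0.15), and Hoxa10 from 0 to 0.0574 RPKM in iBAT (median 0) and 3.69 to 5.43 RPKM in iWAT (median 4.73) (−2.49 ± 0.08). Hoxd10 was listed at 0 in all 8 iBAT libraries and stood at 0.4 to 1.01 RPKM in iWAT (median 0.788). Within the Hoxa and Hoxc clusters the sign thus changed along the cluster, between Hoxa5 and Hoxa7 and between Hoxc5 and Hoxc6 (Hoxc6 −0.71, and −0.17 without passing under quantile normalization), while Hoxa6 did not pass the test (−0.19 ± 0.10, adjusted p = 0.0931, and higher in iBAT by 0.52 with quantile normalization).

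**Figure D3:**
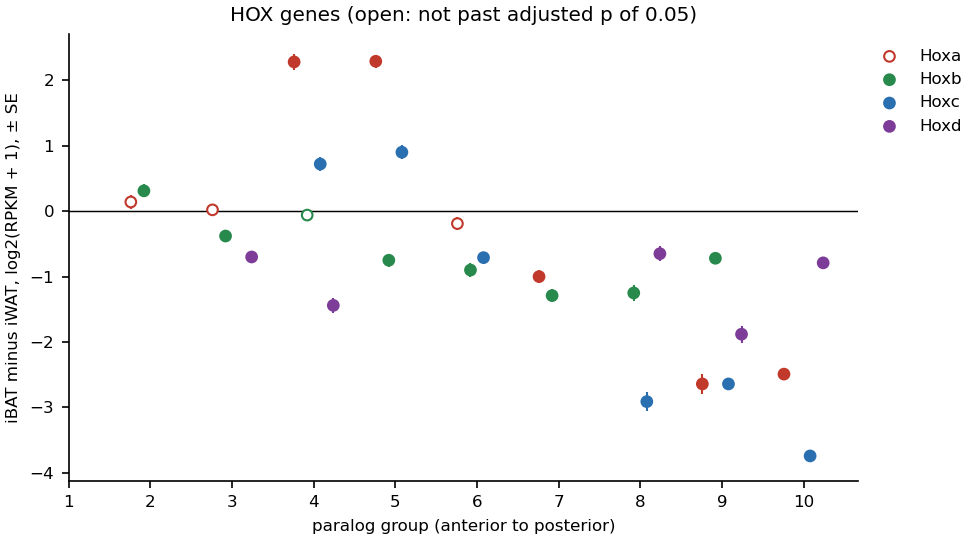
Difference iBAT minus iWAT in log2(RPKM + 1), with SE bars, of 27 of the 28 tested HOX genes by paralog group, coloured by cluster. Filled points passed the test at an adjusted p of 0.05. Hoxa4, Hoxa5, Hoxc4, Hoxc5 and Hoxb2 lie above zero, and the genes of groups 9 and 10 lie below zero, down to −3.74 for Hoxc10.

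Other genes of body position were divided between the depots. Of 49 tested patterning genes, 4 were higher in iBAT and 32 were higher in iWAT (median ratios 11 and 25, quantiles 21 and 19), and the second share is close to the 61.8% of all genes. With quantile normalization the median of the list was 0.05 in place of −0.52. Zic1, a factor of the dorsal axis and a known mark of interscapular fat, ran from 2.8 to 3.75 RPKM in iBAT (median 3.18) and 0 to 0.0756 RPKM in iWAT (median 0.0399) (2.02 ± 0.07, adjusted p = 9.8e-43). Zic4, its neighbour, stood at 0.49 to 1.3 RPKM in iBAT (median 0.923) and was listed at 0 in all 8 iWAT libraries. Tbx5, a limb and heart factor, ran from 1.54 to 2.66 RPKM in iBAT (median 2.15) and 0.477 to 1.06 RPKM in iWAT (median 0.758) (0.84 ± 0.14). On the other side stood mesenchymal and limb factors. Shox2 ran from 0.414 to 1 RPKM in iBAT (median 0.565) and 4.82 to 6.21 RPKM in iWAT (median 5.58) (−2.03 ± 0.11), Twist2 from 0.556 to 1.27 RPKM in iBAT (median 0.882) and 6.27 to 10.8 RPKM in iWAT (median 8.02) (−2.26 ± 0.13) and Osr1 from 0.706 to 2.1 RPKM in iBAT (median 0.927) and 5.97 to 10.2 RPKM in iWAT (median 8.37) (−2.15 ± 0.15). Emx2 (−1.86 ± 0.10), Tbx1 (−1.75 ± 0.13) and Prrx1 (−2.08 ± 0.20) were lower in iBAT too, and none of these 6 overlapped. Tbx15, a marker of several depots, was lower in iBAT (−1.54 ± 0.25) with overlapping ranges. En1, which is active in the dermomyotome that gives rise to interscapular fat, was below 0.5 RPKM in every iBAT library and stood at 0.589 to 1.26 RPKM in iWAT (median 0.987), but its difference was −0.01 with quantile normalization. Among 14 genes proposed as markers of beige adipocytes, 10 were higher in iWAT and 2, P2rx5 (2.25 ± 0.12) and Slc36a2 (1.90 ± 0.10), were higher in iBAT, beside 61.8% and 19.5% of all genes. The other set included Tmem26 (−1.50 ± 0.14), Tnfrsf9 (−1.57 ± 0.13) and Cd40 (−2.62 ± 0.19), of which the last 2 are also expressed by lymphocytes.

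Genes of the respiratory chain were higher in iBAT nearly throughout. Of complex I, 36 of 37 tested genes were higher, of complex II 4 of 4, of complex III 9 of 9, of complex IV 14 of 18 and of ATP synthase 12 of 15, against 19.5% of all genes, and the medians were 1.80, 2.16, 2.15, 1.97 and 1.54. In complexes I to IV none was lower. Sdha of complex II ran from 807 to 994 RPKM in iBAT (median 908) and 186 to 220.1 RPKM in iWAT (median 192) (2.19 ± 0.09), and Ndufv1 of complex I from 403 to 508 RPKM in iBAT (median 448) and 56.5 to 67.1 RPKM in iWAT (median 61.1) (2.86 ± 0.10). Atp5b, the catalytic subunit of ATP synthase, ran from 2442 to 3428 RPKM in iBAT (median 2909.9) and 561 to 666 RPKM in iWAT (median 609) (2.24 ± 0.12). No iBAT library overlapped an iWAT library for these 3 genes. Subunits that exist in tissue-specific forms followed. Cox7a1, the form of muscle and brown fat, ran from 443 to 718 RPKM in iBAT (median 542) and 3.58 to 45.1 RPKM in iWAT (median 11) (5.48 ± 0.25, and 6.22 without the 6 libraries with the most muscle RNA), and Cox8b from 999.9 to 1863 RPKM in iBAT (median 1303) and 67.3 to 141 RPKM in iWAT (median 82) (3.91 ± 0.20). The heart and muscle form Cox6a2 had medians of 6.49 RPKM in iBAT and 13.1 RPKM in iWAT (−0.03 ± 0.77, adjusted p = 0.974), with overlap. Cox7c, and COX2, COX3 and ND3 of the mitochondrial genome, read near 0 although every cell uses them, so that their values are uncertain.

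Of the ATP synthase genes, 3 were lower in iBAT. Atpif1, the inhibitor of ATP synthase that keeps the enzyme from running backwards, ran from 10.1 to 17.5 RPKM in iBAT (median 13) and 29.4 to 41.6 RPKM in iWAT (median 35) (−1.37 ± 0.13, adjusted p = 5.3e-17). Atp5g1 and Atp5g3, which encode the same c subunit of the proton rotor, were also lower, at −1.08 ± 0.25 and −0.32 ± 0.13 (adjusted p = 0.0205, and 0.0603 without the 6 muscle-rich libraries), and with median-ratio scaling Atp5g3 stood at 0.20. Atp5g1 ran from 4.79 to 21.3 RPKM in iBAT (median 7.2) and 15.1 to 30.2 RPKM in iWAT (median 18.8), with overlap. Genes of the catalytic head were instead higher in iBAT, with Atp5c1 at 1.00 ± 0.08 beside Atp5b.

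Machinery around the chain showed the same direction. Of 37 genes of the citric acid cycle and pyruvate entry, 29 were higher in iBAT and 4 were lower, against 19.5% and 61.8% of all genes, with a median of 2.10. Sucla2, of the ADP-forming succinyl-CoA ligase, ran from 535 to 686 RPKM in iBAT (median 602) and 56.2 to 80.0 RPKM in iWAT (median 63.5) (3.20 ± 0.10, adjusted p = 5.7e-46). Pdk4, the kinase that blocks pyruvate entry when fatty acids are burned, ran from 979.7 to 1475 RPKM in iBAT (median 1211) and 50.6 to 133 RPKM in iWAT (median 78.1) (3.92 ± 0.17). The succinyl-CoA ligase subunit of the GTP-forming enzyme, Suclg2, differed by only 0.36 ± 0.07. Pyruvate carboxylase (Pcx) was lower by −0.46 ± 0.11 (0.06 with median-ratio scaling). The 7 protein genes of the mitochondrial genome that were among the symbols used, of 13, were all tested. All 7 were higher in iBAT, with a median of 1.37. These include COX2, COX3 and ND3, whose values are uncertain and overlapped, while the other 4 did not overlap. Among them, COX1 ran from 18887 to 27868 RPKM in iBAT (median 24004) and 6609.5 to 8779 RPKM in iWAT (median 7792) (1.62 ± 0.15). Mitochondrial ribosomal proteins were higher in iBAT for 73 of 76 genes, by a median of only 0.80, whereas cytosolic ribosomal proteins were lower for 63 of 78 and higher for 3, with a median of −0.88 (medians of −0.39 and −0.72 under the 2 scalings) (median ratios 7 and 51, quantiles 8 and 46). Ribosomal protein genes have many near-identical copies in the genome, and 13 of this list had a mean under 1 RPKM in iBAT, so that their levels are uncertain. Mitochondrial carriers divided into 22 higher and 19 lower genes (median ratios 25 and 13, quantiles 24 and 11), again beside 19.5% and 61.8% of all genes. Slc25a34 (4.58 ± 0.20) and the coenzyme A carrier Slc25a42 (3.44 ± 0.13) led one side, and the dicarboxylate carrier Slc25a10 (−3.00 ± 0.21) and Ucp2 (−1.90 ± 0.14) the other. Nnt, the proton-pumping transhydrogenase of which C57BL/6J mice are known to carry a mutated form, was lower in iBAT at 0.572 to 3.28 RPKM in iBAT (median 0.962) and 4.22 to 5.19 RPKM in iWAT (median 4.83) (−1.34 ± 0.14).

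Promoters of the 82 respiratory chain and ATP synthase genes were searched for short motifs, since these genes moved together. RefSeq windows (from 250 bases before to 50 bases after the annotated start, GRCm38.p6) were available for 11250 of the 16310 genes tested and for 66 of the 82. The short site of estrogen-related receptors, AAGGTCA on either strand, stood in 9 of these 66 windows (13.6%), in 3.43% of all windows, in 5.24% of those of genes at least 2-fold higher in iBAT and in 3.32% of those at least 2-fold higher in iWAT. The letters CGCATGCG of NRF1 stood in 12.1%, 3.56%, 5.02% and 1.80% of the same sets. The longer site TCAAGGTCA, which contains AAGGTCA, stood in 3.03% and 0.276% of respiratory chain and all windows. The cyclic AMP site TGACGTCA stood in 7.58%, 3.01%, 3.49% and 1.58% of the 4 sets in the first order, and TATAAA in 9.09%, 7.84%, 8.30% and 10.5%. A match is a description of letters and not a bound site. The 6 matches that lay before the start are printed 5′ to 3′ on the gene's strand with the 7 letters in capitals (TGACCTT is the reverse complement), since they show that the short site occurred both beside genes that were higher in iBAT and beside 2 that were lower.
Ndufs5 (chr4:123718378-123718436, minus strand, 2.01): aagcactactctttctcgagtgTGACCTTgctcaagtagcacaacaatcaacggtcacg
Ndufb2 (chr6:39592354-39592420, plus strand, 1.90): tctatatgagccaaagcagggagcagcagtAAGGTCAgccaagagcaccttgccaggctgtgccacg
Ndufb4 (chr16:37654387-37654453, minus strand, 1.27): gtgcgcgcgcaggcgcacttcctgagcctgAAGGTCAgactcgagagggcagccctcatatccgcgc
Atp5l (chr9:44920743-44920785, minus strand, 0.45): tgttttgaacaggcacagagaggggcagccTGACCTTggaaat
Atp5g3 (chr2:73911342-73911408, minus strand, −0.32): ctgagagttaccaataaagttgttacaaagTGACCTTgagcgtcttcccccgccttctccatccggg
Atpif1 (chr4:132535617-132535664, minus strand, −1.37): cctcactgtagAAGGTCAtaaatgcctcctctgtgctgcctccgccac
The value after each strand is the difference iBAT minus iWAT. The letters ended 7 bases before the start in Atp5l, 46 in Atp5g3, 49 in Ndufb4, 175 in Ndufb2, 222 in Ndufs5 and 233 in Atpif1.

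**Figure D4:**
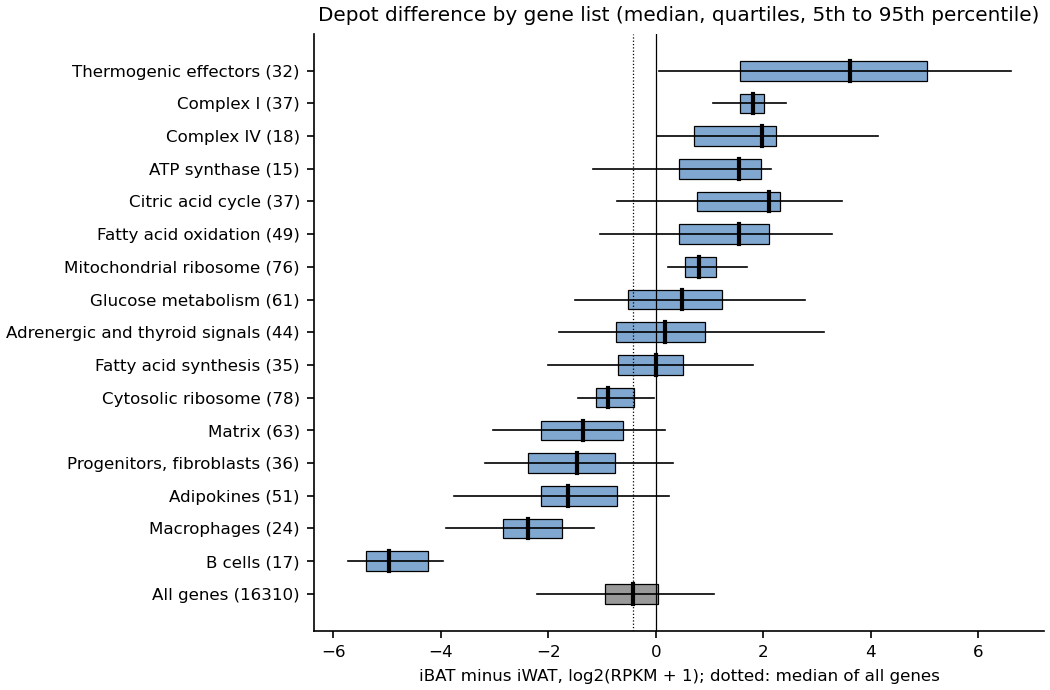
Distribution of the difference iBAT minus iWAT in log2(RPKM + 1) over the tested genes of 16 lists and of all 16310 genes: the line marks the median, the box the quartiles and the whiskers the 5th and 95th percentiles, with the number of genes beside each name. Thermogenic effectors (median 3.61) and respiratory complexes lie to the right, and B cell genes (median −4.96) furthest to the left of the median of all genes at −0.43.

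Fatty acid oxidation genes were mostly higher in iBAT. Of 49 genes, 38 were higher and 9 were lower, against 19.5% and 61.8% of all genes, with a median of 1.54. Acaa2, the last enzyme of mitochondrial beta oxidation, ran from 706 to 991 RPKM in iBAT (median 840.3) and 52.9 to 69.2 RPKM in iWAT (median 60.5) (3.75 ± 0.13), and Acadvl, which acts on the longest chains, from 709 to 854 RPKM in iBAT (median 800.0) and 68.8 to 94 RPKM in iWAT (median 77.3) (3.32 ± 0.11). Etfdh, which hands the electrons to ubiquinone, ran from 342 to 390.4 RPKM in iBAT (median 356) and 40.6 to 48.1 RPKM in iWAT (median 41.4) (3.06 ± 0.09, adjusted p = 1.2e-50). The ranges of these genes did not overlap. The 9 genes that were lower included the peroxisomal or very long chain genes Abcd2 (−2.84 ± 0.14), Crot (−0.61 ± 0.08, but −0.13 and −0.15 without passing under the 2 scalings) and Acox3 (−0.62 ± 0.06). Also among the 9 were the 2 other forms of carnitine palmitoyltransferase 1, Cpt1a (−1.61 ± 0.12) and Cpt1c (−1.21 ± 0.09). Cpt1a, the liver form, ran from 5.25 to 9.28 RPKM in iBAT (median 7.33) and 23.1 to 26.1 RPKM in iWAT (median 24.7). The related peroxisomal transporter Abcd3 was higher in iBAT (2.42 ± 0.10), so that Abcd2 and Abcd3 did not move together. Of 29 peroxisome genes, 15 were higher in iBAT and 10 were higher in iWAT (median ratios 21 and 4, quantiles 20 and 5), so that the share higher in iBAT lay above the 19.5% of all genes here too.

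Fatty acid synthesis genes differed in both directions. Of 35 genes tested, 12 were higher in iBAT, 14 were higher in iWAT and 9 did not pass the test (median ratios 18 and 8, quantiles 14 and 12). The shares of all genes were 19.5% higher in iBAT and 61.8% higher in iWAT. The core enzymes Fasn (0.30 ± 0.30, adjusted p = 0.352), Acaca (0.44 ± 0.23, adjusted p = 0.0685) and Acly (−0.00 ± 0.27, adjusted p = 0.992) had overlapping ranges. With median-ratio scaling Fasn (0.82, adjusted p = 0.014) and Acaca (0.96, adjusted p = 1.7e-04) passed towards iBAT, and Acaca also passed in the fit of the 16 libraries alone (0.44, adjusted p = 0.0215) and with summed transcripts (0.55, adjusted p = 0.00932). Fasn ran from 299.8 to 692 RPKM in iBAT (median 450.1) and 194 to 696 RPKM in iWAT (median 370.2). Enzymes that lengthen and desaturate the product differed by form. Elovl6 ran from 101 to 167 RPKM in iBAT (median 122) and 7.2 to 27.3 RPKM in iWAT (median 10.9) (3.18 ± 0.24) and Scd1 from 9389 to 14147 RPKM in iBAT (median 12472) and 4183 to 6489 RPKM in iWAT (median 5025) (1.21 ± 0.18), whereas Scd2 ran from 5.67 to 9.26 RPKM in iBAT (median 6.9) and 26.5 to 38.4 RPKM in iWAT (median 29.1) (−1.98 ± 0.21) and Fads3 from 9.71 to 17.4 RPKM in iBAT (median 12.2) and 70.5 to 124 RPKM in iWAT (median 91.5) (−2.77 ± 0.18). Of these 4 genes none overlapped. Srebf1, which drives the pathway, was lower in iBAT (−1.22 ± 0.12) and Mlxipl, the carbohydrate-responsive factor, was higher (0.96 ± 0.10).

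Of 25 genes of triglyceride synthesis, 12 were higher in iBAT and 9 were higher in iWAT, with a median of 0.19 (median ratios 14 and 6, quantiles 15 and 6). For this and the next lists, 19.5% and 61.8% of all genes were higher in iBAT and in iWAT. Besides Gyk, the mitochondrial glycerophosphate dehydrogenase Gpd2 ran from 172 to 271 RPKM in iBAT (median 233) and 18.8 to 27.5 RPKM in iWAT (median 20.2) (3.35 ± 0.16) and the cytosolic Gpd1 from 1901 to 2417 RPKM in iBAT (median 2194) and 315 to 544 RPKM in iWAT (median 404) (2.42 ± 0.12), neither with overlap. These 2 enzymes form the glycerophosphate shuttle, which also carries electrons to the respiratory chain. Gpam (2.04 ± 0.12), Agpat3 (1.99 ± 0.06) and Agpat2 (1.65 ± 0.16), which build phosphatidic acid, were higher. Of the final enzymes, Dgat2 stood at 0.19 ± 0.19 (adjusted p = 0.357, but 0.71 and past the test with median-ratio scaling) and Dgat1 at 0.46 ± 0.15 (0.22 without passing under quantile normalization). Of 28 genes of the lipid droplet and lipolysis, 10 were higher in iBAT and 12 were higher in iWAT (median ratios 15 and 7, quantiles 11 and 10), over differences from −2.29 to 4.98. Pnpla2, the first lipase of triglyceride breakdown, ran from 1168 to 1542 RPKM in iBAT (median 1246) and 1021 to 1362 RPKM in iWAT (median 1156) (0.10 ± 0.10, adjusted p = 0.347, but 0.62 and past the test with median-ratio scaling), and Lipe, the hormone-sensitive lipase, from 339.9 to 432 RPKM in iBAT (median 387) and 471 to 566 RPKM in iWAT (median 524) (−0.41 ± 0.09, and 0.11 with median-ratio scaling). The droplet coat divided by form: Plin5 and Plin2 (2.23 ± 0.14) were higher in iBAT, Plin4 (−1.92 ± 0.14) and Cidec (−1.43 ± 0.15) were higher in iWAT, and Plin1 stood at −0.04 ± 0.11 (adjusted p = 0.719, but 0.47 and −0.39 under the 2 scalings). Of 36 lipid uptake genes, 13 were higher in iBAT and 15 were higher in iWAT (median ratios 18 and 12, quantiles 14 and 15), over differences from −3.22 to 6.76. Fabp4, a marker of all adipocytes, ran from 9784 to 12414 RPKM in iBAT (median 11139) and 8397 to 10883 RPKM in iWAT (median 9875) (0.16 ± 0.15, adjusted p = 0.326, and −0.99 with quantile normalization and 0.68 with median-ratio scaling, both past the test), and Lpl, which frees fatty acids from lipoproteins, from 1922 to 2535 RPKM in iBAT (median 2209) and 1696 to 2448 RPKM in iWAT (median 2023) (0.12 ± 0.16, adjusted p = 0.487, but past the test at 0.64 and 0.42 under the 2 scalings and 0.27 with summed transcripts). Their ranges overlapped.

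Glucose genes were mostly higher in iBAT, by modest amounts. Of 61, 32 were higher and 17 were lower, against 19.5% and 61.8% of all genes, with a median of 0.48 (median ratios 36 and 12, quantiles 36 and 8). Some members differed by more. The lactate and ketone transporter Slc16a1 ran from 235 to 295 RPKM in iBAT (median 264) and 11.4 to 21.4 RPKM in iWAT (median 12.6) (4.21 ± 0.13, adjusted p = 1.8e-46), Ldhb, the lactate dehydrogenase of oxidative tissues, from 196 to 251 RPKM in iBAT (median 224) and 12.8 to 20.7 RPKM in iWAT (median 16.6) (3.69 ± 0.12), and the mitochondrial D-lactate dehydrogenase Ldhd from 44.1 to 54.2 RPKM in iBAT (median 47.7) and 6.32 to 9.43 RPKM in iWAT (median 7.96) (2.45 ± 0.11). No library overlapped for these 3 genes, while Ldha differed by 0.61 ± 0.12 with overlap. The insulin-responsive transporter Slc2a4 differed by 0.89 ± 0.12, and the transporters Slc2a1 (−1.07 ± 0.09) and Slc2a3 (−2.24 ± 0.14) were lower in iBAT. Hexokinase 2 (Hk2) ran from 117 to 139 RPKM in iBAT (median 122) and 22.9 to 40.6 RPKM in iWAT (median 32.4) (1.97 ± 0.13). Glycogen genes were present in a form that differed, with the liver-type synthase Gys2 (3.05 ± 0.17) and its targeting subunit Ppp1r3b (2.78 ± 0.19) higher in iBAT and the brain-type phosphorylase Pygb lower (−1.69 ± 0.11). Gapdh, Pgk1 and Pgam1 have near-identical copies in the genome and read low, so that their levels are uncertain.

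Genes of proposed UCP1-independent heat production differed in both directions. Of 29 genes of creatine and calcium cycling, 10 were higher in iBAT and 11 were higher in iWAT, against 19.5% and 61.8% of all genes. Among them, Alpl, whose product is proposed to release phosphate from phosphocreatine, ran from 7.76 to 15 RPKM in iBAT (median 9.69) and 0.949 to 2.2 RPKM in iWAT (median 1.51) (2.08 ± 0.13), and Ckb, the cytosolic creatine kinase, from 13 to 46.2 RPKM in iBAT (median 24) and 6.72 to 10.1 RPKM in iWAT (median 7.9) (1.43 ± 0.16). The calcium pump Atp2a2 ran from 89.7 to 138 RPKM in iBAT (median 117) and 28.8 to 33.3 RPKM in iWAT (median 31.3) (1.85 ± 0.09), and Pm20d1, a secreted enzyme that makes N-acyl amino acids, from 4.73 to 6.78 RPKM in iBAT (median 5.33) and 0.415 to 1.04 RPKM in iWAT (median 0.692) (1.96 ± 0.14). These 4 genes did not overlap between depots. The creatine synthesis enzymes Gatm (−1.61 ± 0.16) and Gamt (−1.15 ± 0.18) were lower in iBAT. Ckmt2 stood at 0.86 ± 0.72 (adjusted p = 0.266) and ran from 0.947 to 58.6 RPKM in iBAT (median 4.67) and 0 to 37.3 RPKM in iWAT (median 3.49), with the highest values in muscle-rich libraries, and Sln, Ckm and Atp2a1 likewise did not pass. Branched-chain amino acid catabolism had 15 higher and 12 lower genes (median ratios 22 and 6, quantiles 16 and 9). The first and the last steps went apart: Bcat2, the transaminase, was lower (−1.39 ± 0.17), whereas Pccb (1.44 ± 0.12) and Mcee (1.67 ± 0.14) of propionate metabolism were higher.

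Secreted factors of adipocytes were mostly higher in iWAT. Of 51 adipokine genes tested, 40 were higher in iWAT and 2, Nampt (1.10 ± 0.10) and Orm3 (0.51 ± 0.17), were higher in iBAT, with a median of −1.63 (median ratios 4 and 35, quantiles 6 and 34). Among all genes tested, 61.8% were higher in iWAT and 19.5% were higher in iBAT. Leptin (Lep), the hormone that reports fat stores, ran from 0.984 to 8.18 RPKM in iBAT (median 3.89) and 57.9 to 196 RPKM in iWAT (median 114) (−4.71 ± 0.39, adjusted p = 1.3e-19). Resistin (Retn) ran from 48.3 to 103 RPKM in iBAT (median 73.6) and 593 to 845 RPKM in iWAT (median 713) (−3.30 ± 0.25), and adiponectin (Adipoq) from 670.2 to 1048 RPKM in iBAT (median 776) and 1823 to 2357 RPKM in iWAT (median 2037) (−1.33 ± 0.14). The ranges of these 3 hormones did not overlap, although adiponectin is made by all adipocytes. Nnat, an imprinted gene of white adipocytes, ran from 13.4 to 65.7 RPKM in iBAT (median 32.3) and 523 to 919 RPKM in iWAT (median 709) (−4.52 ± 0.36), Sncg from 8.88 to 17.2 RPKM in iBAT (median 15.7) and 196 to 348 RPKM in iWAT (median 288) (−4.21 ± 0.28) and adipsin (Cfd) from 673 to 1533 RPKM in iBAT (median 950.3) and 6101 to 9825 RPKM in iWAT (median 7879) (−2.99 ± 0.30). Of 36 tested factors described as secreted by brown fat, 13 were higher in iBAT and 20 were higher in iWAT (median ratios 15 and 17, quantiles 16 and 13). The highest was Ptgds, a prostaglandin D synthase, at 28.9 to 104 RPKM in iBAT (median 55.7) and 0.13 to 1.53 RPKM in iWAT (median 0.482) (5.17 ± 0.27), followed by Kng2, a kininogen, at 23.3 to 43.7 RPKM in iBAT (median 37.4) and 0.113 to 1.5 RPKM in iWAT (median 0.323) (4.63 ± 0.27). In other wild-type groups the iBAT median of Ptgds was 1.88 RPKM at 20 °C and 3.03 RPKM on high fat diet. In UCP1(-/-) mice it was 50.9 RPKM at 20 °C, 1.91 RPKM at 30 °C and 0.358 RPKM on high fat diet. S100b, a factor that attracts sympathetic fibres, ran from 14 to 22.9 RPKM in iBAT (median 18.8) and 1.89 to 3.51 RPKM in iWAT (median 2.67) (2.44 ± 0.24), and neurturin (Nrtn) from 1.89 to 6.36 RPKM in iBAT (median 2.64) and 0.0893 to 0.506 RPKM in iWAT (median 0.4) (1.51 ± 0.13). All 4 were free of overlap. Nrg4 differed by 0.83 ± 0.11, and Fgf21 ran from 0.179 to 2.33 RPKM in iBAT (median 0.99) and 0.0716 to 0.34 RPKM in iWAT (median 0.122) (0.83 ± 0.23, adjusted p = 7.6e-04, and 0.0512 without the 6 muscle-rich libraries). Bmp8b, in contrast, was not higher in iBAT (−0.43 ± 0.13, but −0.12 without passing under median-ratio scaling and 0.32 with quantile normalization), and Retnla, an alternative-activation marker of macrophages and a product of white fat, ran from 15 to 39 RPKM in iBAT (median 22.7) and 173 to 616 RPKM in iWAT (median 457) (−4.08 ± 0.27).

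Matrix and progenitor genes were higher in iWAT. Of 63 matrix genes, 52 were higher in iWAT and 3 were higher in iBAT (median −1.35), of 36 progenitor and fibroblast genes 32 and 2 (median −1.47), and of 32 collagen genes 23 and 4 (median −1.15) (median ratios 7 and 22, quantiles 8 and 19). Beside these stood 61.8% higher in iWAT and 19.5% higher in iBAT among all genes tested. Fibronectin (Fn1) ran from 8.38 to 24.8 RPKM in iBAT (median 10.4) and 68.6 to 167 RPKM in iWAT (median 123) (−3.24 ± 0.19) and Efemp1 from 3.88 to 13.2 RPKM in iBAT (median 5.35) and 52.3 to 115 RPKM in iWAT (median 82.4) (−3.54 ± 0.18). Dpp4, a surface mark of early adipocyte progenitors, ran from 0.731 to 2.61 RPKM in iBAT (median 1.11) and 18.8 to 32.1 RPKM in iWAT (median 24.9) (−3.45 ± 0.17), and Pdgfra, a mark of progenitors at large, from 3.23 to 8.38 RPKM in iBAT (median 4.17) and 15.5 to 24.3 RPKM in iWAT (median 19.8) (−1.90 ± 0.16). No library overlapped in these genes. F3, described on cells that restrain adipogenesis, was an exception at 0.73 ± 0.12. Of 33 tested FGF and IGF genes, 20 were higher in iWAT and 5 in iBAT (median ratios 10 and 17, quantiles 12 and 15), which is close to the shares of all genes (61.8% and 19.5%). The binding proteins Igfbp4 (−3.19 ± 0.16), Igfbp5 (−3.08 ± 0.19) and Igfbp6 (−2.69 ± 0.18) led the first set. The second set held Klb, the co-receptor for FGF21 (1.18 ± 0.15), and the FGF feedback inhibitors Spry4 (1.37 ± 0.13) and Spry2 (0.49 ± 0.12). Growth hormone receptor (Ghr) was lower in iBAT at 52.8 to 71.4 RPKM in iBAT (median 60.1) and 154 to 214 RPKM in iWAT (median 174) (−1.54 ± 0.13). WNT genes were mostly higher in iWAT (29 of 37, 3 in iBAT) (median ratios 7 and 23, quantiles 12 and 16), with Wnt10b, which restrains adipogenesis, at 0 to 0.175 RPKM in iBAT (median 0.0733) and 1.18 to 2.48 RPKM in iWAT (median 2.01) (−1.43 ± 0.09), and Sfrp4 at −2.55 ± 0.21. The WNT target Axin2 was higher in iBAT (0.68 ± 0.12).

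Immune cell genes were higher in iWAT without exception among those tested for B cells (17 of 17), T and NK cells (20 of 20), macrophages (24 of 24) and MHC class II presentation (11 of 11), against 61.8% of all genes. The medians were −4.96, −3.54, −2.37 and −3.33. Glycam1, a product of the high endothelial venules of lymph nodes, was listed at 0 in the median iBAT library and ran from 46.4 to 134 RPKM in iWAT (median 92.1) (−6.24 ± 0.29, adjusted p = 4.2e-35). The immunoglobulin gene Ighm ran from 3.97 to 50.0 RPKM in iBAT (median 7.98) and 373 to 1076 RPKM in iWAT (median 498) (−5.52 ± 0.47). Each iWAT library thus held B cell and lymph node RNA, and summed B cell markers made up 0.268 to 0.574% of iWAT and 0.00155 to 0.0190% of iBAT libraries. Over the 24 macrophage genes the differences ran from −4.85 ± 0.26 for Timd4 to −0.72, with Mrc1 at −2.62 ± 0.21 and Csf1r at −2.76 ± 0.23. Marco, a macrophage receptor outside that list, stood at −5.73 ± 0.28. Macrophages with Timd4 or Marco also populate lymph nodes. The 15 genes with the largest differences towards iWAT that were named by the rule were B cell, other lymphocyte, lymph node or macrophage genes, among them Cd79b (−5.86 ± 0.32) and Fcer2a (−5.32 ± 0.24). Interferon-induced genes were higher in iWAT for 32 of 33, and complement genes for 22 of 25, with C4b at 7.16 to 32.1 RPKM in iBAT (median 11.3) and 181 to 232 RPKM in iWAT (median 212) (−4.03 ± 0.23). How much of these differences came from the lymph node was not tested, since its markers separated the depots completely.

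Of 20 endothelial genes, 7 were higher in iBAT and 9 were higher in iWAT (median −0.05) (median ratios 11 and 2, quantiles 9 and 5), and summed endothelial markers overlapped, at 0.159 to 0.209% of iBAT and 0.181 to 0.249% of iWAT libraries. For this and the next lists, the shares of all genes tested were 19.5% higher in iBAT and 61.8% higher in iWAT. The VEGF receptor Kdr was higher in iBAT (0.53 ± 0.10) and Vegfa, its ligand, ran from 130.2 to 177 RPKM in iBAT (median 158) and 98 to 153 RPKM in iWAT (median 129) (0.35 ± 0.12, but 0.07 without passing under quantile normalization). Plvap, a protein of fenestrated and lymph node vessels, ran from 4.7 to 10.3 RPKM in iBAT (median 7.07) and 49.7 to 63.4 RPKM in iWAT (median 57.4) (−2.82 ± 0.13). Schwann cell and myelin genes were higher in iWAT (15 of 17, 1 in iBAT) (median ratios 2 and 14, quantiles 2 and 10), with a median of −1.16. S100b, often used as a Schwann cell mark, went the other way. Of 33 skeletal muscle markers tested, 10 passed towards iBAT, 0 passed towards iWAT and 23 did not pass, with a median of −0.26. The 10 included slow-fibre genes such as Myh7 (2.05 ± 0.65, adjusted p = 0.00296) and Myl2 (2.72 ± 0.80). Myh7 stood at 39.65, 9.31 and 39.14 RPKM in iBAT libraries 19, 21 and 24 and reached at most 1.64 RPKM in the other iBAT libraries. None of the 10 passed without the 6 muscle-rich libraries. The part of muscle RNA in the differences of genes shared by muscle and brown fat was measured only by leaving out these libraries, which kept the thermogenic effectors at 30 higher and 1 lower. Of 19 clock genes, 5 were higher in iBAT and 8 were higher in iWAT (median ratios 8 and 4, quantiles 9 and 5). Arntl (0.95 ± 0.14) and Clock (1.09 ± 0.07) were higher in iBAT and Per3 (−2.20 ± 0.15) and Dbp (−1.84 ± 0.19) were higher in iWAT, each without overlap.

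Pairs of related genes were compared as a ratio within each library, with 1 added to each RPKM, which depends little on the scaling between libraries. Of 30 pairs, the exact permutation test passed for 25 after adjustment over the pairs, and 21 had ranges that did not overlap. Among single genes, 81.3% differed by limma and 59.7% had ranges without overlap. Several pairs hold a gene whose own difference in the same libraries is given above, so that their ratios are not separate evidence. The log2 ratio of Cpt1b to Cpt1a ran from 4.84 to 5.72 in iBAT (median 5.17) and −2.05 to −0.36 in iWAT (median −1.65), a difference of 6.69 (exact permutation test, adjusted p = 2.2e-04). That of Cidea to Cidec ran from 0.72 to 1.43 in iBAT (median 1.22) and −6.27 to −4.29 in iWAT (median −5.19), and that of Cox7a1 to Cox7a2 from 0.28 to 0.48 in iBAT (median 0.37) and −4.60 to −1.39 in iWAT (median −3.38). Each of these ratios changed sign between the depots. When transcripts of a symbol were summed, the ratio of Cidea to Cidec was −1.40 to −0.66 in iBAT (median −0.87) and no longer changed sign, so that Cidec was then the more abundant in both depots. The ratio of Ucp1 to Ucp2 differed by 10.58, of Fabp3 to Fabp4 by 6.61, of Pdk4 to Pdk1 by 4.14, of Ldhb to Ldha by 3.08 and of Ppara to Pparg by 2.76 (exact permutation test, adjusted p = 2.2e-04 each). In other pairs the first gene had the lower ratio in iBAT. Slc16a3 to Slc16a1 ran from −7.61 to −5.62 in iBAT (median −6.99) and −2.65 to 0.20 in iWAT (median −1.68), and Adrb3 to Adrb1 from 1.49 to 2.35 in iBAT (median 2.01) and 4.05 to 5.61 in iWAT (median 4.90) (adjusted p = 2.2e-04 each, exact permutation test). Scd2 to Scd1 differed by −3.19, Ppargc1b to Ppargc1a by −2.16 and Cox4i2 to Cox4i1 by −1.74, also without overlap (exact permutation test, adjusted p = 2.2e-04 each). Adrb3 was thus more abundant than Adrb1 per length in both depots, but by a smaller factor in iBAT. Ratios that include muscle isoforms had wide ranges, such as Eno3 to Eno1 at −5.09 to −0.18 in iBAT (median −3.73) and −1.90 to 2.88 in iWAT (median 0.11) and Pfkm to Pfkl at −2.91 to −0.40 in iBAT (median −2.28) and −2.02 to 2.83 in iWAT (median −0.22). The ratio of the adenine nucleotide translocases Slc25a4 to Slc25a5 differed by 0.05 (exact permutation test, adjusted p = 0.835).

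**Figure D5:**
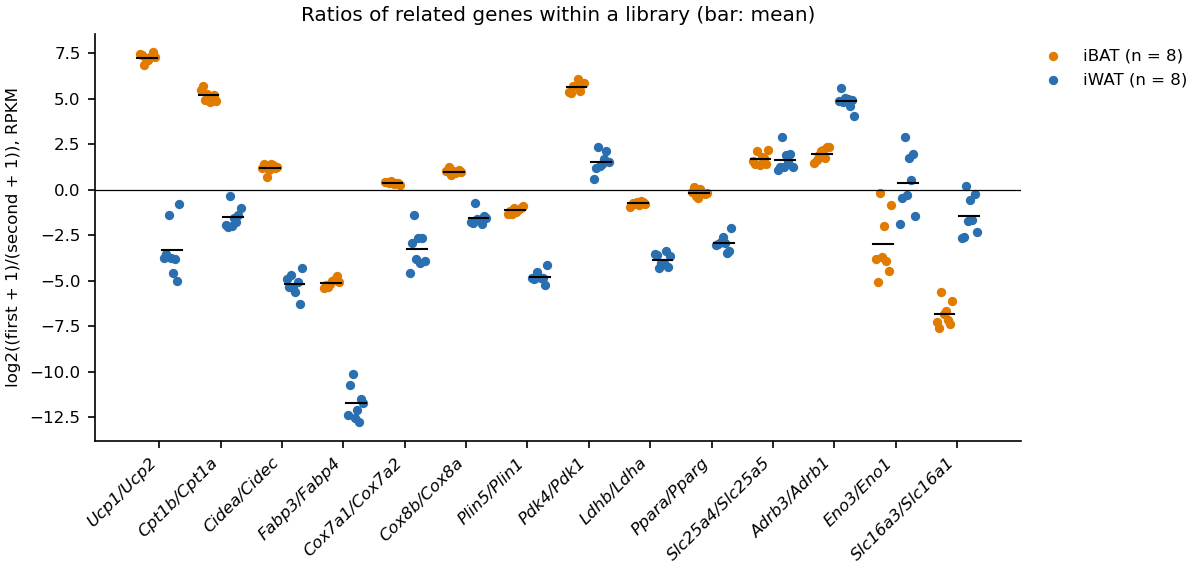
log2 ratio of 14 pairs of related genes in each library of iBAT (orange) and iWAT (blue), one point a library and the bar the group mean. A value above zero means that the first gene of the pair had the higher RPKM. The ratios of Cpt1b to Cpt1a, Cidea to Cidec, Cox7a1 to Cox7a2, Cox8b to Cox8a and Ucp1 to Ucp2 lie above zero in iBAT and below zero in iWAT.

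The depot differences were then set beside those of the 5 other groups, which use other libraries in the same fit. Of the 625 genes at least 2-fold higher in iBAT, 557 (89.1%) were called higher in iBAT in all 5, and of the 2472 genes at least 2-fold higher in iWAT, 1904 (77%) were called higher in iWAT in all 5. Without the 2-fold rule the shares were smaller. Of the 3188 genes higher in iBAT, 1303 (40.9%) were called so in all 5, and of the 10075 higher in iWAT, 4112 (40.8%). In the knockout at 30 °C on control diet, 81 of the 3188 and 925 of the 10075 were called the other way. Some HOX and patterning genes differed by similar amounts in each group. Hoxc10 differed by −3.74 here and by −3.19 to −3.63 in the other groups, Hoxa5 by 2.29 and by 1.64 to 2.20, and Zic1 by 2.02 and by 1.78 to 2.32. Over the lists, the median of the 28 HOX genes was −0.72 here and −0.39 in the knockout at 30 °C on control diet, and that of the 49 patterning genes −0.52 and −0.05. The genotype changed the difference of 17 HOX genes (14 towards more positive values) and of 28 patterning genes, against 63.1% of all genes. Thermogenic genes varied as well. Ucp1 differed by 8.67 here, by 5.16 at 20 °C and by 9.20 on high fat diet, and Dio2 by 6.47, 4.79 and 6.41.

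Temperature changed the depot difference of 2738 genes (16.8%), of which 1911 were more positive at 30 °C than at 20 °C and 827 were more negative, by the interaction test. The thermogenic list was less separated in the cold, with a median of 2.42 at 20 °C beside 3.61 at 30 °C, and 21 of its 32 genes had a more positive difference at 30 °C. For Ucp1 the change was 3.51 ± 0.57 (adjusted p = 1.5e-06). The level of Ucp1 in iWAT at 20 °C ran from 23.9 to 281 RPKM (median 97.1), and in iBAT at 20 °C from 2428 to 4549.5 RPKM (median 4016), so that at 20 °C the level was lower than at 30 °C in every iBAT library and its median was higher in iWAT. Cold is known to raise Ucp1 in brown fat, and the levels in iBAT went the other way. The temperature groups are named here as labelled, which leaves that doubt on each value of this comparison. Cntfr, a cytokine receptor subunit, changed by 2.99 ± 0.22, Ptgds by 4.42 ± 0.39 and Slc16a1 by 2.08 ± 0.19, while vimentin (Vim) changed by −1.37 ± 0.15 and Hip1r by −1.86 ± 0.20. Slc16a1 stood 4.21 apart at 30 °C and 2.13 apart at 20 °C, and Vim −1.58 and −0.20. Without the 6 muscle-rich libraries the number of genes was 1749.

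Diet changed the difference of 2629 genes (16.1%), 1042 more positive and 1587 more negative on high fat than on control diet, and 1977 without the 6 libraries. G6pdx, which makes NADPH for lipid synthesis, changed by −1.56 ± 0.17, from 1.03 on control diet to −0.54, and acid sphingomyelinase (Smpd1) by −1.21 ± 0.12. The natriuretic peptide receptor Npr1 changed by 1.14 ± 0.13, from −0.12 to 1.03. Of the 32 thermogenic genes, 5 became more and 1 became less positive, and for Ucp1 the change was 0.53 ± 0.57 (adjusted p = 0.577). Adrb3 stood at 0.16 on high fat beside −0.73 on control diet (0.88 ± 0.28, adjusted p = 0.0178).

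In mice lacking Ucp1, its transcript was still listed, at 564 to 1112 RPKM (median 679) in iBAT and 34 to 124 RPKM (median 83.1) in iWAT on control diet at 30 °C. The iBAT levels lay below every wild-type iBAT library. The iWAT median lay above that of wild-type iWAT in the same condition (14.9 RPKM, range 4.66 to 117), with overlap. The depot difference changed for 10292 genes (63.1%), 8593 towards more positive and 1699 towards more negative values. With median-ratio scaling these were 4415 and 4237, and the median difference of all genes was −0.07 in the knockout beside −0.43 in the wild type. The direction of changes near that shift of 0.36 therefore depended on the scaling. Lists at both ends came closer to each other. The median of thermogenic effectors was 1.79 in the knockout beside 3.61, with 27 of 32 genes less positive, and 35 of 37 complex I genes were less positive (median 0.95 beside 1.80). The macrophage median was 0.08 in the knockout beside −2.37, with 23 of 24 genes more positive, and the matrix median −0.34 beside −1.35. Otop1 changed by −2.82 ± 0.24, whereas B2m, the light chain of MHC class I, changed by 1.99 ± 0.14 and galectin 3 (Lgals3) by 4.26 ± 0.34. Gmpr, second only to Ucp1 in the wild type on control diet at 30 °C, stood at 6.84 in the knockout (0.04 ± 0.36, adjusted p = 0.934). Its level varied with condition. The median of Gmpr in wild-type iBAT was 65.8 RPKM at 20 °C, 599 RPKM at 30 °C on control diet and 770 RPKM on high fat diet.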

How the data were processed

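The authors deposited 1 table of RPKM per transcript for 96 libraries. Per the submitters' processing notes, CASAVA and bcl2fastq were used. Not given in the sources used here were the aligner, the counter and the genome build. RPKM are shares of a library, so a change in abundant genes moves all others, and reads recovered from low values (95.1 to 95.5% whole within 0.05) served only to state depth. Of 168326 transcripts, 13.8% had no gene identifier and were left out (9.54% of summed RPKM). The transcript with the highest mean represented each of 29072 symbols. A gene was tested if 8 or more libraries reached 0.5 RPKM, on log2(RPKM + 1), log2 values computed here from the deposited RPKM, with limma 3.58.1 in R 4.3.3 (trend) over 12 group means of 96 libraries and Benjamini-Hochberg adjustment over all genes. Calls used an adjusted p of 0.05, and the 2-fold rule used limma's treat. Ratios of pairs and shares of libraries were compared with two-sided exact permutation tests (scipy 1.17.1), adjusted within their family. The test was tried on simulated data with known changes. Labels tie no libraries of 1 animal together and number samples across the series, so libraries were treated as independent. The limma p-values and standard errors rest on the spread within groups of 8 libraries, pooled over the 12 groups and moderated across genes. Permutation tests in the main setting used only the 16 libraries. Named genes are the 15 largest rises and falls past 2-fold (mean of at least 5 RPKM), for each list the 8 members of smallest p, members called against the majority of their list, any member of lists of up to 40 genes, genes of the pairs, and the genes with the smallest interaction p. Other genes were chosen after their values were seen, and some genes are not reported here. The comparison, lists and pairs were chosen with earlier results of these data known. Alternatives were another pseudocount, other filters, median-ratio scaling, quantile normalization, a fit of the 16 libraries alone and sums of transcripts. Leaving out the 6 muscle-rich libraries was added after seeing the data. Promoter windows are from RefSeq.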

Additional observations from a re-analysis of the deposited data

Results flagged for a closer look

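Among the 227 genes named, 33 of 454 gene and depot combinations (7.27%) had 1 library far from the other 7 on the log2 scale, by a rule that chance meets in about 1 of 20 groups. Library 19 of iBAT, 1 of the muscle-rich libraries, stood apart most often. It held the most Fn1 (24.8 RPKM, others 8.38 to 11.5), C4b (32.2, others 7.16 to 12.3), Igfbp4 (79.4, others 39.6 to 46.8), Efemp1 (13.2, others 3.88 to 6.61), Car3 (1942 RPKM), Cidec (652 RPKM), Emx2 (0.311 RPKM), Glycam1 (0.471 RPKM) and Hoxa10 (0.0574 RPKM, others at 0), genes that were all higher in iWAT. It held the least Gpd2 (171.7 RPKM, others 221 to 271) and Kng2 (23.3 RPKM, others 34.0 to 43.7), genes that were higher in iBAT. The values of library 19 thus lay towards iWAT for genes of several lists, and whether other tissue was included was not tested.

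Library 72 of iWAT stood apart in the other direction. It held the most Slc16a1 (21.4 RPKM, others 11.4 to 13.5), Dio2 (4.74, others 0.417 to 1.46), Adcy3 (27.9, others 12.6 to 16.8), Etfdh (48.1, others 40.6 to 42.6), Agpat2 (444.8, others 191.5 to 268.1), Pfkl (32.1 RPKM) and Cox8a (297 RPKM), all higher in iBAT, and it was the iWAT library with the most Ucp1. The other single libraries were scattered. In iBAT, Alpl reached 15.0 RPKM in library 22, Nrtn 6.36 and Pnpla2 1542 in library 18, Fcer2a 0.891 in library 21 and Hoxc10 0.0571 in library 17. Pygb fell to 9.29 in library 23 and Suclg2 to 14.7 in library 21. In iWAT, Ighm reached 1076 RPKM in library 65, Kdr 43.1 in library 70, COX2 2.27 in library 68, Myh7 0.400 in library 66, and Phospho1 22.1 and Tbx1 5.18 in library 67. Plin4 was lowest at 622.9 RPKM in library 65 and Hoxd8 at 5.04 in library 68.

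The depot difference itself differed between conditions by the interaction test for 2738 genes (temperature), 2629 genes (diet) and 10292 genes (genotype), each against the same wild-type control libraries at 30 °C. At 30 °C against 20 °C it was more positive by 4.42 for Ptgds, 3.51 for Ucp1, 2.99 for Cntfr and 2.08 for Slc16a1, and changed by −1.86 for Hip1r and −1.37 for Vim. On high fat against control diet it changed by 1.14 for Npr1, 0.88 for Adrb3, −1.21 for Smpd1 and −1.56 for G6pdx. In the knockout against the wild type it changed by 4.26 for Lgals3, 1.99 for B2m and −2.82 for Otop1.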

How the results depend on the processing

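No paired analysis was possible because the depots share no replicate number in the labels. With median-ratio scaling and quantile normalization, the genes higher in iBAT numbered 5632 and 6638, those at least 2-fold higher 1191 and 1124, those at least 2-fold lower 1435 and 1274, and those also called so in all 5 other groups 1035 and 964 (higher) and 1170 and 1061 (lower), and quantile normalization left 5696 genes lower. A pseudocount of 0.1 gave 4242 genes at least 2-fold lower, 2900 of them so called in all 5 groups, since it widens the difference of low genes. Without the 6 muscle-rich libraries, temperature changed the difference of 1749 genes. Shares of libraries kept their direction and side of the threshold when transcripts were summed. Among the pairs, Aldoa to Aldoc turned to −0.54 with the smaller pseudocount and to −0.21 with summed transcripts, and stood at 0.63 (exact permutation test, adjusted p = 0.00992) without the 6 libraries. Cox6a2 to Cox6a1 stood at −2.27 (adjusted p = 0.019, exact permutation test) without them, and Dgat2 to Dgat1 at −0.20 with summed transcripts (adjusted p = 0.066) and −0.26 without them (adjusted p = 0.0617, exact permutation tests).

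Of 1803 values of named genes under alternatives, 27 changed direction, 16 lost the call and 18 gained one. With median-ratio scaling these were Acly 0.51, Atp2a1 0.37, Atp5g3 0.20, Cox6a2 0.42, Hoxa6 0.10, Hoxb3 0.01, Lipe 0.11, Npr1 0.38, Pcx 0.06, Pdk1 0.28 and Plin1 0.47. With quantile normalization they were Acly 0.03, Bmp8b 0.32, Cited1 0.20, Cox6a2 0.37, Dgat2 −0.19, Fabp4 −0.99, Hoxa6 0.52, Hoxb3 0.39, Hoxd8 0.02, Npr1 0.07 and Pnpla2 −0.01. Summed transcripts gave Acly 0.01 and Atp2a1 0.03, the smaller pseudocount Atp2a1 0.01, and leaving out the 6 libraries Atp2a1 0.22 and Sln −0.28. The knockout change of Gmpr was −0.41 with median-ratio scaling, −0.15 with quantile normalization and −0.50 without the 6 libraries. List medians turned to 0.05 for patterning, 0.04 for FGF and IGF, 0.30 for cholesterol, 0.11 for smooth muscle and 0.29 for imprinted genes with quantile normalization, to 0.21 for cholesterol, 0.11 for skeletal muscle and 0.07 for smooth muscle genes with median-ratio scaling, and to 0.25 for mesothelial genes with a filter at 2 RPKM. For results not explained by the construction of an alternative, the cause was not tested. Depth limited genes near 0.1 RPKM, about 1 read on 1 kb.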

Other observations

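Gene groups outside the comparisons above differed as well, and are set beside 19.5% of all genes tested higher in iBAT and 61.8% higher in iWAT. Cell division genes were higher in iWAT for 19 of 19 tested, with a median difference of −1.25, and genes of the BMP and TGF-beta pathways for 43 of 52, with 6 higher in iBAT (median ratios 7 and 34, quantiles 9 and 27). Proteasome genes were higher in iBAT for 23 of 42 and lower for 8, with a median of 0.21 (median ratios 36 and 4, quantiles 33 and 5). Genes of mitochondrial import, fusion and upkeep were higher in iBAT for 42 of 55 and lower for 7, with a median of 1.05. Lymphatic vessel genes were higher in iWAT for 6 of 6 tested, which are also expressed in lymph nodes. Globin and other erythroid genes passed the test in neither direction for any of 6 tested.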
